A study of Mus musculus with 6 samples.

Results

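Peaks of H3K27me3 were examined at the Pax family, the 9 mouse genes Pax1 to Pax9, in ovarian granulosa cells (GCs). The members were taken by name, as 9 of 21911 protein-coding genes of the GENCODE annotation. For each gene, every peak listed from 5 kb upstream of the annotated mm10 gene start to the gene end was used, in each library on its own. A peak was listed at all 9 Pax genes in at least 1 library, where 19.5% of protein-coding genes had one. A peak in all 6 libraries was found at 4 of the 9, namely Pax1, Pax6, Pax7 and Pax8, where 4.53% of protein-coding genes had one. The windows ran from 12 kb for Pax4 to 191 kb for Pax5, and a longer window has more room for a peak.

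H3K27me3 was profiled by CUT&Tag, in which an antibody directs a protein A-Tn5 transposase fusion to marked chromatin, where it cuts and tags the DNA. The GCs came from female ICR mice, an outbred stock, aged 3 weeks and primed with pregnant mare's serum gonadotropin to start follicle growth. Mice of the CTX group received a single intraperitoneal injection of cyclophosphamide, an alkylating chemotherapeutic drug, and mice of the PBS group received phosphate-buffered saline, with collection at 6 h in both. There were 3 PBS and 3 CTX libraries, each from GCs pooled from 3 mice, so that fewer marked cells and less mark per cell cannot be told apart.

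Pax proteins are transcription factors that bind DNA through the paired domain, and each one directs the formation of particular organs in the embryo. H3K27me3 is laid down by Polycomb repressive complex 2, with EZH2 as a catalytic subunit, and genes of developmental transcription factors are well known to carry it in cells that do not use them. Some family members act near the ovary, since Pax2 and Pax8 are needed for the urogenital ducts, and Pax8 marks the epithelium of the oviduct.

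Bases around the strongest summit of 6 Pax regions are given first, because these regions carry the comparisons that follow. Each stretch holds 200 bases of the mm10 (GRCm38) sequence on the strand of its gene, 5′ to 3′, in lower case with every CpG in capitals. The Pax8 stretch (chr2:24473930-24474129, minus strand) lay 1570 bp from the gene start in the only Pax8 region, within an annotated exon. The Pax6 stretch (chr2:105683052-105683251, plus strand) came from the region with the strongest Pax peak by -log10 q-value, in a retained-intron transcript. The first Pax7 stretch (chr4:139830669-139830868, minus strand) was intronic and present in all 6 libraries. The second Pax7 stretch (chr4:139834006-139834205, minus strand) lay upstream of the gene and was listed in every PBS library and in no CTX library. The Pax1 stretch (chr2:147365517-147365716, plus strand) was intronic, downstream of the RefSeq start of the gene. The Pax5 stretch (chr4:44709303-44709502, minus strand) was intronic and held no CpG.
Pax8 region 1: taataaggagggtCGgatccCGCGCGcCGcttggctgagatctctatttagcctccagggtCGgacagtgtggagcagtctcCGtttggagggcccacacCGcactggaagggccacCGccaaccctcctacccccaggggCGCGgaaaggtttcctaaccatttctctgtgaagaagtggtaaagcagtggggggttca
Pax6 region 4: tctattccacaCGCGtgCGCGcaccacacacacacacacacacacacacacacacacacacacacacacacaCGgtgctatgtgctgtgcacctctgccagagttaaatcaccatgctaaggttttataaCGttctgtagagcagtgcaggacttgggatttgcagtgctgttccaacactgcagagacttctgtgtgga
Pax7 region 2: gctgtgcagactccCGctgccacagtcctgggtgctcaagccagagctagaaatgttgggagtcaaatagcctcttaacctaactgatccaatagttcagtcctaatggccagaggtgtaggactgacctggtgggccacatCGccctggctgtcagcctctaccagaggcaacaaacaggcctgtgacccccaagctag
Pax7 region 1: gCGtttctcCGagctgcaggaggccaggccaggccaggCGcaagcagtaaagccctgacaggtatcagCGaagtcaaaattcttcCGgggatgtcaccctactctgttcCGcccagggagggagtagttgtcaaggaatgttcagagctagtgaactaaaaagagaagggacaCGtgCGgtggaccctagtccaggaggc
Pax1 region 2: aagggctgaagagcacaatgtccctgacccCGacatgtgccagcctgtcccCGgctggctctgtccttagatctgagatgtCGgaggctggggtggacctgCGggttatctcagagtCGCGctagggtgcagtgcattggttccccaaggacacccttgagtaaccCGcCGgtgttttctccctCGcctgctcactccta
Pax5 region 2: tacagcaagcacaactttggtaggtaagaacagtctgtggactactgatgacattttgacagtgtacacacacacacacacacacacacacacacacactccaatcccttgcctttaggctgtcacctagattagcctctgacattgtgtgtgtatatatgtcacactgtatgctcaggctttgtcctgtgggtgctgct
The number of CpG sites in 200 bases was 11 for Pax8, 6 for Pax6, 2 and 8 for the first and second Pax7 stretch, 9 for Pax1 and 0 for Pax5. The Pax6 and Pax5 stretches each contained a run of alternating C and A, 48 bp and 34 bp long.

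The lists hold no read totals, so the depth was recovered from the fold enrichment and p-value of each summit, which together give the pileup and the background of the library. It ranged from 1375 to 1957 reads per Mb in the PBS group and from 1118 to 1630 reads per Mb in the CTX group. CTX 3 was the shallowest library and PBS 1 the deepest, and peaks covered 1.74 to 2.84 Mb of genome per PBS library and 0.929 to 1.94 Mb per CTX library. Of 12 genes of granulosa cell identity, 10 had no peak in any library, and the other two, Fshr and Esr2, had 200 bp in 1 PBS library each. A peak of this repressive mark does not measure how many cells of a type were present. Peaks were listed for 2 of 6 theca and stroma markers, 1 of 4 oocyte markers, 1 of 3 endothelial markers and 1 of 3 leukocyte markers, and both Sertoli markers, Sox9 and Dmrt1, had one in all 6 libraries.

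The Pax2, Pax5 and Pax8 genes form 1 subfamily, and Pax8 had the most covered bases of the family. Pax8, which directs thyroid and urogenital development, lies on chromosome 2 at 24420560 to 24475599 on the minus strand. Its peaks covered 2058, 1592 and 1739 bp in PBS 1, 2 and 3, and 1374, 1458 and 1086 bp in CTX 1, 2 and 3. Every CTX library was below every PBS library, with means of 1796 ± 238 bp and 1306 ± 195 bp (SD, n = 3 each; two-sided exact permutation p = 0.1, the smallest that 3 against 3 libraries allow). All of this coverage fell in a single stretch from -21 to 2036 bp of the gene start. In PBS 1 the stretch was 1 unbroken peak of 2058 bp and in PBS 3 1 peak of 1739 bp, whereas PBS 2 held it as 3 peaks and each CTX library as 2. By mean coverage over the 6 libraries Pax8 was 132nd of all protein-coding genes. The whole stretch also overlaps the noncoding gene Gm13415, and the lists cannot assign it to either gene.

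Pax2 (chromosome 19, 44756045 to 44837871, plus strand), which specifies the nephric duct and the optic stalk, had peaks in 2 PBS and 2 CTX libraries. They covered 1933, 0 and 1725 bp in PBS 1, 2 and 3 and 200, 907 and 0 bp in CTX 1, 2 and 3. The empty libraries, PBS 2 and CTX 3, were the shallowest of their groups, and the groups overlapped (1219 ± 1061 bp against 369 ± 477 bp, n = 3 each, exact permutation p = 0.4). Around the gene start (-427 to 325 bp) Pax2 was marked in 2 PBS libraries and no CTX library. Its peaks from 78636 to 79754 bp, close to the gene end, lay wholly within the antisense gene 1700039E22Rik. Pax5 (chromosome 4, 44524757 to 44710487, minus strand), the factor that commits cells to the B lineage, had 1253, 847 and 1566 bp in the PBS libraries and 270, 847 and 0 bp in the CTX libraries. PBS 2 and CTX 2 had the same coverage, so the groups touched (1222 ± 361 bp against 372 ± 433 bp, exact permutation p = 0.2). Of the CTX 2 coverage, 205 bp came from a peak with a -log10 q-value of 1.38, close to the calling threshold. With the q-value limit at 0.01, Pax5 was lower in every CTX library.

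Pax1 and Pax9 are the sister genes of the sclerotome, the precursor of vertebrae, and of the pharyngeal pouches that form the thymus. Pax1 (chromosome 2, 147361925 to 147393295, plus strand) had 1603, 1301 and 1867 bp in PBS 1, 2 and 3 and 400, 1026 and 211 bp in CTX 1, 2 and 3. Each CTX value was under each PBS value, and the means were 1590.3 ± 283 bp and 546 ± 427 bp (n = 3 each, exact permutation p = 0.1). Pax9 (chromosome 12, 56691767 to 56712822, plus strand) had 427, 427 and 569 bp in the PBS libraries and 210, 910 and 0 bp in the CTX libraries. CTX 2 held the highest Pax9 coverage of all 6 libraries and CTX 3 none, so the groups overlapped throughout (474 ± 82.0 bp against 373 ± 476 bp, exact permutation p = 0.8). In CTX 2, 353 bp of this coverage came from a peak at 827 to 1179 bp that no other library listed. Its -log10 q-value was 1.40, close to the calling threshold. The CTX minus PBS difference of Pax9, -101 bp, changed sign under 4 of 17 other settings: it was 14 bp with 10 kb upstream, 118 bp in the promoter alone, 85.7 bp without CTX 3 and 62 bp between libraries of like depth. It was -219 bp with the q-value limit at 0.01. The promoter window, 2 kb on either side of the annotated gene start, held that CTX 2 peak alone. The RefSeq start of Pax9, 3704 bp downstream, lies outside that window.

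Pax3 and Pax7 direct muscle and neural crest progenitors, and Pax7 marks the satellite cells of adult muscle. Pax7 (chromosome 4, 139737062 to 139833528, minus strand) had 2357, 1187 and 1399 bp in PBS 1, 2 and 3 and 922, 1488 and 697 bp in CTX 1, 2 and 3. CTX 2 exceeded PBS 2 and PBS 3, and the means of 1648 ± 623 bp and 1036 ± 408 bp differed by less than the SD of the PBS group (exact permutation p = 0.3). Pax3 (chromosome 1, 78101267 to 78197134, minus strand) had 1860, 200 and 1189 bp in the PBS libraries and 0, 296 and 0 bp in the CTX libraries. Only CTX 2 among the CTX libraries held a Pax3 peak, and its value exceeded that of PBS 2 (1083 ± 835 bp against 98.7 ± 171 bp, exact permutation p = 0.2). That CTX 2 peak lay upstream of the gene (-2572 to -2277 bp), and no CTX library listed a peak within the Pax3 gene itself.

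Pax4 and Pax6 form the last subfamily, with Pax6 acting in eye, brain and pancreatic islet and Pax4 in islet beta cells. Pax6 (chromosome 2, 105668900 to 105697364, plus strand) had 1534, 753 and 1907 bp in PBS 1, 2 and 3 and 893, 1541 and 620 bp in CTX 1, 2 and 3. The groups overlapped, with PBS 2 below CTX 1 and CTX 2 (1398 ± 589 bp against 1018 ± 473 bp, exact permutation p = 0.5). Pax4 (chromosome 6, 28442334 to 28449353, minus strand) had 954, 200 and 983 bp in the PBS libraries and 227, 0 and 0 bp in the CTX libraries. All Pax4 peaks lay upstream of the gene, none within it, and CTX 1, the 1 CTX library with a peak, exceeded PBS 2 (712 ± 444 bp against 75.7 ± 131 bp, exact permutation p = 0.2).

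**Figure D1:**
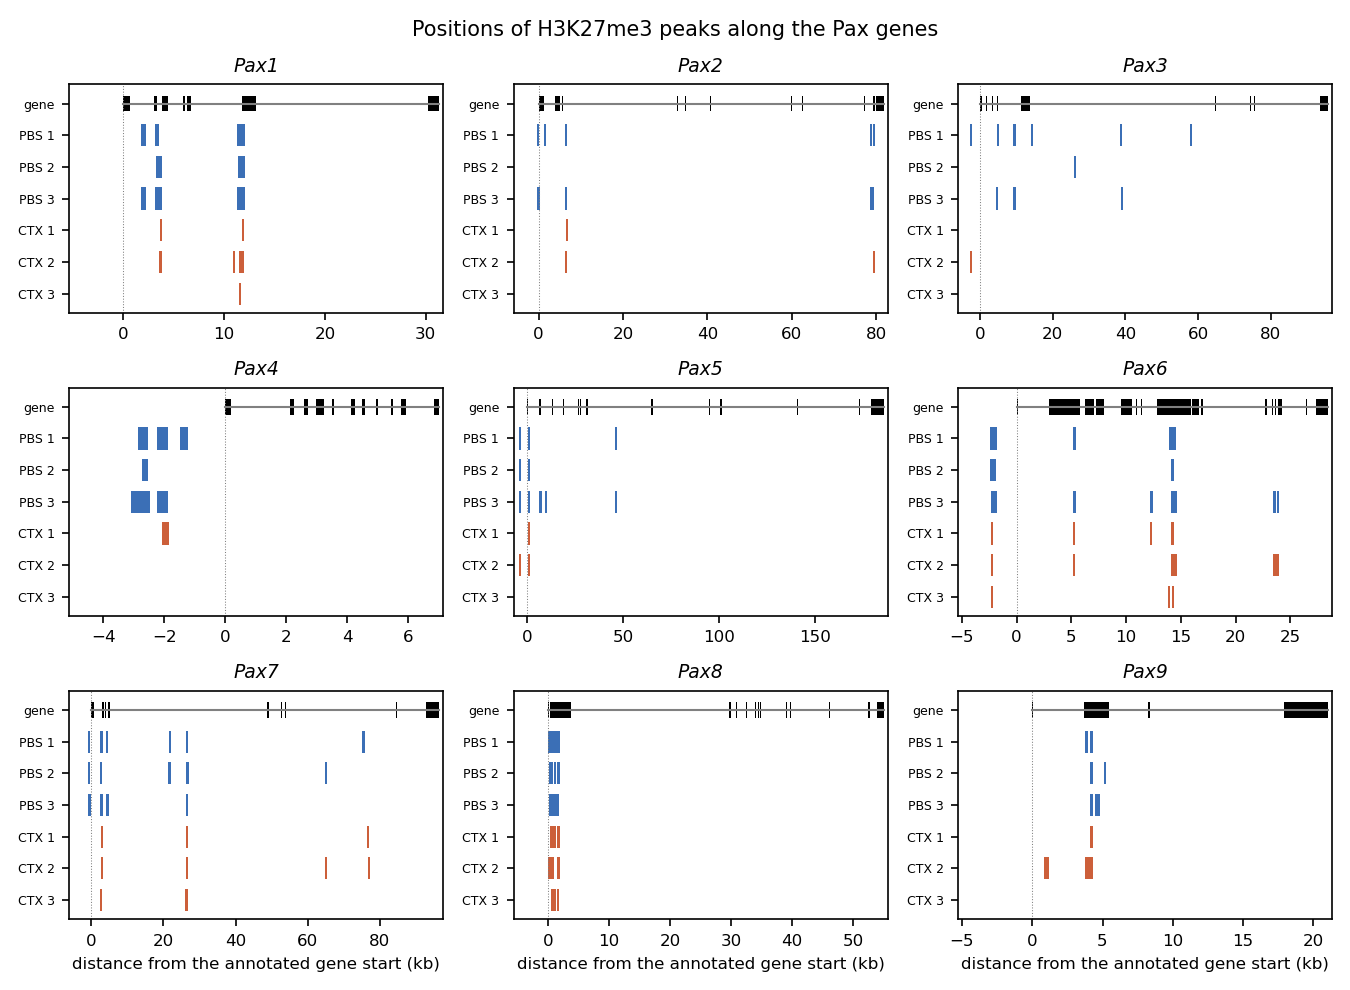
Positions of peaks along each Pax gene in the 3 PBS (blue) and 3 CTX (orange) libraries, by distance from the annotated gene start in kb, with exons in black on the top line. Bars are drawn to scale with a minimum width so that narrow peaks can be seen. Pax8 shows 1 marked stretch at its start in all 6 libraries, whereas other members, such as Pax2, Pax3, Pax5 and Pax7, show peaks far into the gene.

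**Figure D2:**
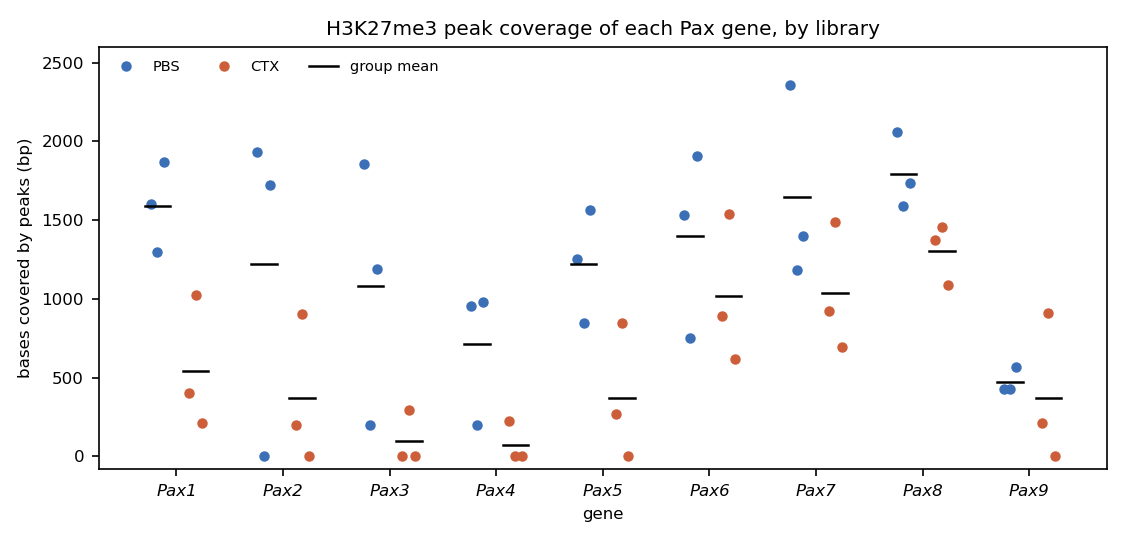
Bases covered by peaks (bp) for each Pax gene, with a point per library (PBS blue, CTX orange, in replicate order) and a line at each group mean. The CTX points lie wholly below the PBS points at Pax1 and Pax8, and CTX 2 is the highest CTX point at every gene except Pax4.

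The groups therefore did not overlap at 2 of 9 members, Pax1 and Pax8, both lower in CTX. Among the 4266 protein-coding genes with a peak in any library, 14% were lower in every CTX library. No Pax gene was higher in every CTX library, which held for 0.281% of these genes. Among the 4 members with a peak in all 6 libraries, 2 were lower in every CTX library, against 30.7% of the 993 genes of that kind, and 0 were higher, against 0.504%. The adjusted p-values of the 9 members ranged from 0.70 to 1 (exact permutation test, Benjamini-Hochberg over the 4266 genes), and 0.70 was also the lowest over all genes. No Pax gene had a peak in every PBS and no CTX library, a pattern seen in 1.73% of the genes with a peak, or in every CTX and no PBS library, seen in 0.117%. The mean coverage was lower in the CTX group at 9 of 9 members, against 70.2% of the 4266 genes, and at 4 of 4 members with a peak in all 6 libraries, against 93.9% of the 993 genes of that kind. After scaling each library to the same total covered bases the difference turned positive at Pax6 (213 bp), Pax7 (49.2 bp) and Pax8 (334 bp). The other 6 stayed lower in CTX on that scale. Under it, the members lower in every CTX library were Pax1 and Pax5 in place of Pax1 and Pax8. Pax8 was also not among them when the q-value limit was 0.01 or 1e-05 or when each list was cut to the same number of peaks, whereas Pax1 was. Pax5 was among them at the limit of 0.01.

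Summed over the family, peaks covered 13979, 6507 and 12944 bp in PBS 1, 2 and 3 and 4496, 8473 and 2614 bp in CTX 1, 2 and 3. The order of these totals was close to the order of depth: PBS 1 was the deepest library and the first in coverage, CTX 3 the shallowest and the last. The means were 11143 ± 4048 bp and 5194 ± 2991 bp (n = 3 each), a CTX to PBS ratio of 0.466, beside a ratio of 0.611 for all covered bases of the libraries. The Pax share of all covered bases was 0.492%, 0.374% and 0.521% in the PBS libraries and 0.310%, 0.436% and 0.281% in the CTX libraries, and the groups overlapped through PBS 2 and CTX 2. The ratio of summed coverage was 0.445 for Pax1 and Pax9, 0.483 for Pax2, Pax5 and Pax8, 0.415 for Pax3 and Pax7 and 0.518 for Pax4 and Pax6.

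A peak was listed at 9, 8 and 9 Pax genes in PBS 1, 2 and 3 and at 8, 8 and 4 in CTX 1, 2 and 3. CTX 3 held peaks at Pax1, Pax6, Pax7 and Pax8 only, and the mean numbers were 8.67 ± 0.577 and 6.67 ± 2.31 genes. Without CTX 3 the difference in means was -0.667 genes in place of -2. Depth moved with this result, and its part was not tested. In pairs of libraries of like depth, chosen after the data were seen, PBS 2 and CTX 1 (1375 and 1433 reads per Mb) differed by -2011 bp of Pax coverage, with 6 members lower and 3 higher in CTX. PBS 3 and CTX 2 (1595 and 1630 reads per Mb) differed by -4471 bp, with 7 lower and 2 higher. Pax1, Pax3, Pax5 and Pax8 were the 4 members lower in CTX in both pairs.

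**Figure D3:**
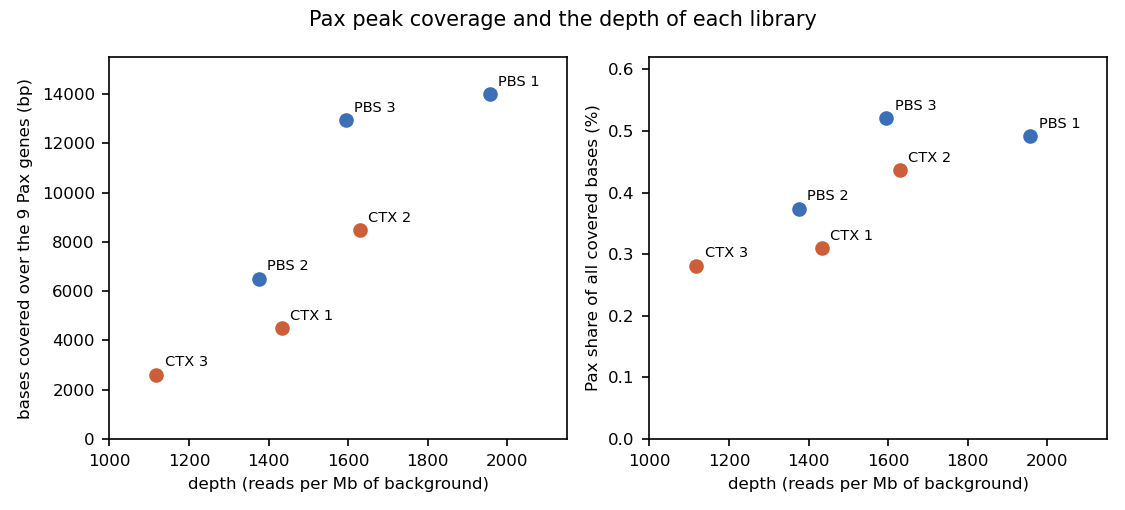
Bases covered by peaks over the 9 Pax genes (left, bp) and their share of all covered bases (right, %), against the depth of each library in reads per Mb, with PBS in blue and CTX in orange. PBS 3 (12944 bp) lies above CTX 2 (8473 bp) and PBS 2 (6507 bp) above CTX 1 (4496 bp) at nearly the same depth, and both measures are lowest in CTX 3, the shallowest library.

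The strength of the strongest peak gave another view of the family. By -log10 q-value, Pax6 had the strongest Pax peak in PBS 1, PBS 2, CTX 1, CTX 2 and CTX 3, and Pax8 had it in PBS 3. The -log10 q-value of the strongest Pax6 peak was 24.4, 14.2 and 9.10 in PBS 1, 2 and 3 and 13, 22.1 and 9.30 in CTX 1, 2 and 3. The lowest was PBS 3, and the groups overlapped entirely. In rank this peak was 145th, 201st and 1145th in the PBS lists and 218th, 126th and 242nd in the CTX lists, counted from the top. For Pax8 the -log10 q-value was 15.3, 3.43 and 14.8 in the PBS libraries and 7.33, 17.5 and 8.80 in the CTX libraries. PBS 2 stood apart at Pax8, with 1592 bp covered but a strongest peak ranked only 3180th.

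As a percentile within the list of each library, where 100 is the strongest, the Pax6 peak stood at 98.4, 96.4 and 85.1 in the PBS group and 95.7, 98.0 and 92.7 in the CTX group (exact permutation p = 0.9). Pax1 stood at 96.0, 84.1 and 87.6 in the PBS group and 82.1, 89.8 and 53.6 in the CTX group (p = 0.4, exact permutation). Pax7 stood at 91.8, 54.2 and 70.4 in the PBS group and 89.8, 83.6 and 84.8 in the CTX group (p = 0.4, exact permutation). Pax8 stood at 95.4, 43.2 and 95.5 in the PBS group and 84.7, 97.1 and 91.9 in the CTX group (p = 0.8, exact permutation). The strongest peak of Pax7 was not the same in every library. It lay upstream of the gene in PBS 3, at 26569 to 26781 bp in CTX 1 and within 2496 to 3265 bp in the other libraries. The strongest Pax1 peak likewise changed region between libraries. Rank percentiles overlapped between the groups at all 4 genes. Thus 0 of 4 were lower in every CTX library, against 17.9% of the 993 genes with a peak in all 6 libraries, and 0 were higher, against 0.906%. The median difference in percentile, CTX minus PBS, was 7.70 over these 4 genes and -7.64 over the 993. The positive sign over the Pax genes rested on PBS 2, since without that library the medians were -0.24 and -10.1.

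**Figure D4:**
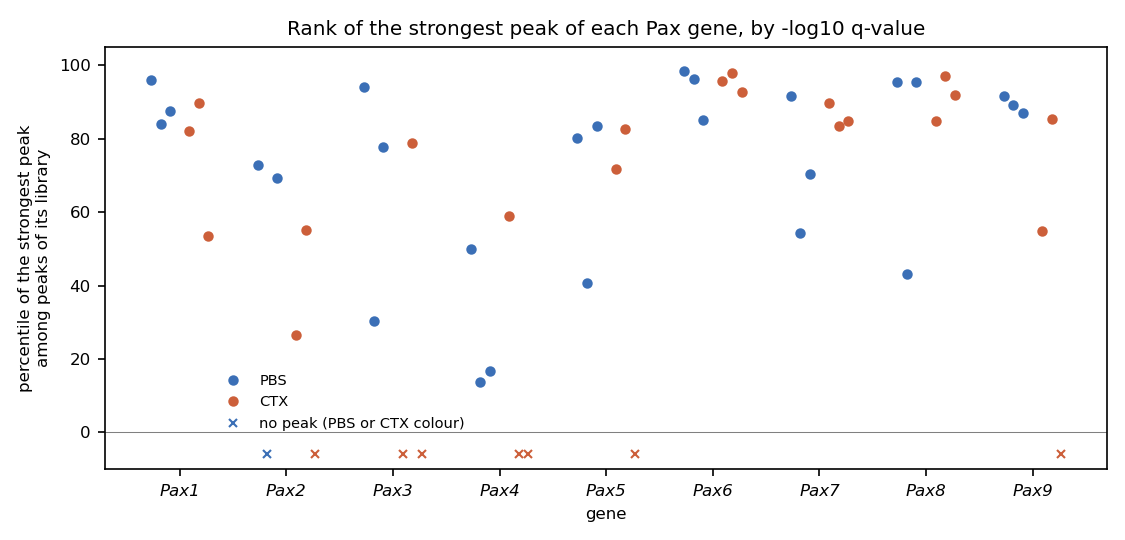
Percentile of the strongest peak of each Pax gene among all peaks of its library by -log10 q-value, with 3 PBS points (blue) and 3 CTX points (orange) per gene and crosses below the line where no peak was listed. Pax6 lies at 85.1 or above in all 6 libraries, and Pax8 has 1 low point, PBS 2 at 43.2.

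The pileup is the number of extended reads over a summit, and the highest pileup of each gene, scaled to 1000 reads per Mb, compared the height of the signal and not its extent. For Pax1 the scaled pileup was 48.0, 39.3 and 45.8 in PBS 1, 2 and 3 and 27.9, 37.4 and 20.6 in CTX 1, 2 and 3. The groups did not overlap (44.4 ± 4.55 against 28.6 ± 8.45, n = 3 each, log2 ratio -0.63, exact permutation p = 0.1). The highest Pax1 summit was not the same one in every library: in PBS 1 it lay in an intronic region (1743 to 2276 bp) that no CTX library listed. Pax6 had scaled pileups of 53.1, 48.7 and 41.4 against 39.8, 50.3 and 40.2 (log2 ratio -0.14, exact permutation p = 0.4). Pax7 had 53.1, 44.4 and 48.9 against 41.9, 42.3 and 45.6 (log2 ratio -0.17, exact permutation p = 0.2). Pax8 had 34.2, 23.3 and 36.4 against 25.1, 35.6 and 30.4 (log2 ratio -0.04, exact permutation p = 0.9). The order of genes by this height was not that by q-value. Pax7 stood above Pax6 in PBS 3, CTX 1 and CTX 3, below it in PBS 2 and CTX 2, and level with it in PBS 1. Pax9 (49.4 and 50.2) stood above Pax6 in PBS 2 and PBS 3 and below it in PBS 1, CTX 1 and CTX 2. Pax6, Pax7 and Pax8 overlapped between groups, so that 1 of 4 was lower in every CTX library, where 41.2% of 990 genes were, and 0 were higher, where 2.12% were. The median log2 ratio was -0.15 over the 4 Pax genes and -0.30 over all genes with a peak in all 6 libraries. At Pax8, then, the covered bases of the groups were separate while the scaled pileups were not.

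Peaks of the 6 libraries merged into 42 separate regions at the Pax genes, out of 12380 on the chromosomes. Of these, 6 were present in all 6 libraries (14.3%, against 9.02% of all regions), 24 in 2 to 5 libraries and 12 in a single library (28.6%, against 62.9%). PBS libraries alone held 21 regions (50%, against 39.8% of all), 10 of them in a single library. CTX libraries alone held 3 regions (7.14%, against 31.0%), 1 each at Pax1, Pax7 and Pax9, and 2 of these lay in a single library. Over all regions, 3752 of the 3842 in CTX libraries alone lay in a single library, as did 4033 of the 4928 in PBS libraries alone. Single-library regions were less frequent at the Pax genes, so these shares do not compare like with like. The Pax7 region of CTX libraries alone, in CTX 1 and CTX 2, was 60.5% soft-masked repeat sequence and the single repeat-rich region of the 42.

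The 6 regions shared by all libraries lay at 4 genes. Pax6 had 2, from -2441 to -1822 bp and from 13806 to 14657 bp, Pax7 had 2, from 2496 to 3265 bp and from 26165 to 26792 bp, and Pax1 and Pax8 had 1 each, from 11306 to 12042 bp and from -21 to 2036 bp. The upstream Pax6 region lies within the antisense gene Pax6os1. It was 618, 492 and 553 bp wide in the PBS libraries and 200, 218 and 211 bp in the CTX libraries, so that each CTX peak was narrower than each PBS peak. This held for 3 of the 6 shared Pax regions (the others were those of Pax1 and Pax8) and for 23.6% of the 1117 regions of all 6 libraries, and 0 were wider in every CTX library, against 0.716%. Over all listed summits, each given the width of its peak, the median width was 454, 396 and 479.5 bp in PBS 1, 2 and 3 and 289, 368 and 251 bp in CTX 1, 2 and 3, lower in every CTX library. A peak with several summits counts once per summit in these medians. PBS 1 listed 9083 summits in 6378 merged peaks, and CTX 3 listed 3316 in 2916. At the upstream Pax6 region all 3 CTX peaks ended more than 2000 bp upstream of the gene start, whereas the 3 PBS peaks reached to -1824, -1926 and -1822 bp. The second Pax6 region, from which the stretch above came, began 69 bp from an annotated internal start. Its highest scaled pileups were those given above for the gene, since the strongest Pax6 peak was here in every library.

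A region in every PBS library and no CTX library occurred at Pax4 (-3082 to -2486 bp) and at Pax7 (-678 to -342 bp), 2 of 42 (4.76%, against 1.65% of all regions), and the reverse occurred 0 times. Regions of a single library, 28.6% of those at Pax genes and 62.9% of all, cannot show this pattern. These shares therefore do not compare like with like either. The Pax7 region is the stretch upstream of the gene printed above. Its pileups were 82, 56 and 75 reads in PBS 1, 2 and 3, with -log10 q-values of 6.67, 3.71 and 6.36. In the same libraries the neighbouring Pax7 region at 2496 to 3265 bp reached 104, 61 and 78 reads, and it reached 60, 69 and 51 reads in CTX 1, 2 and 3. The Pax4 region was weak, with pileups of 20, 12 and 14 reads and -log10 q-values of 4.37, 1.82 and 1.76. A region not listed is one that did not pass the caller at that depth, and its signal below the threshold was not measured. The Pax7 region at 26165 to 26792 bp had scaled pileups of 15.3, 18.2 and 17.6 in the PBS libraries and 24.4, 16.0 and 21.5 in the CTX libraries. CTX 1 and CTX 3 were above every PBS library there, and CTX 2 lay among the PBS values.

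**Figure D5:**
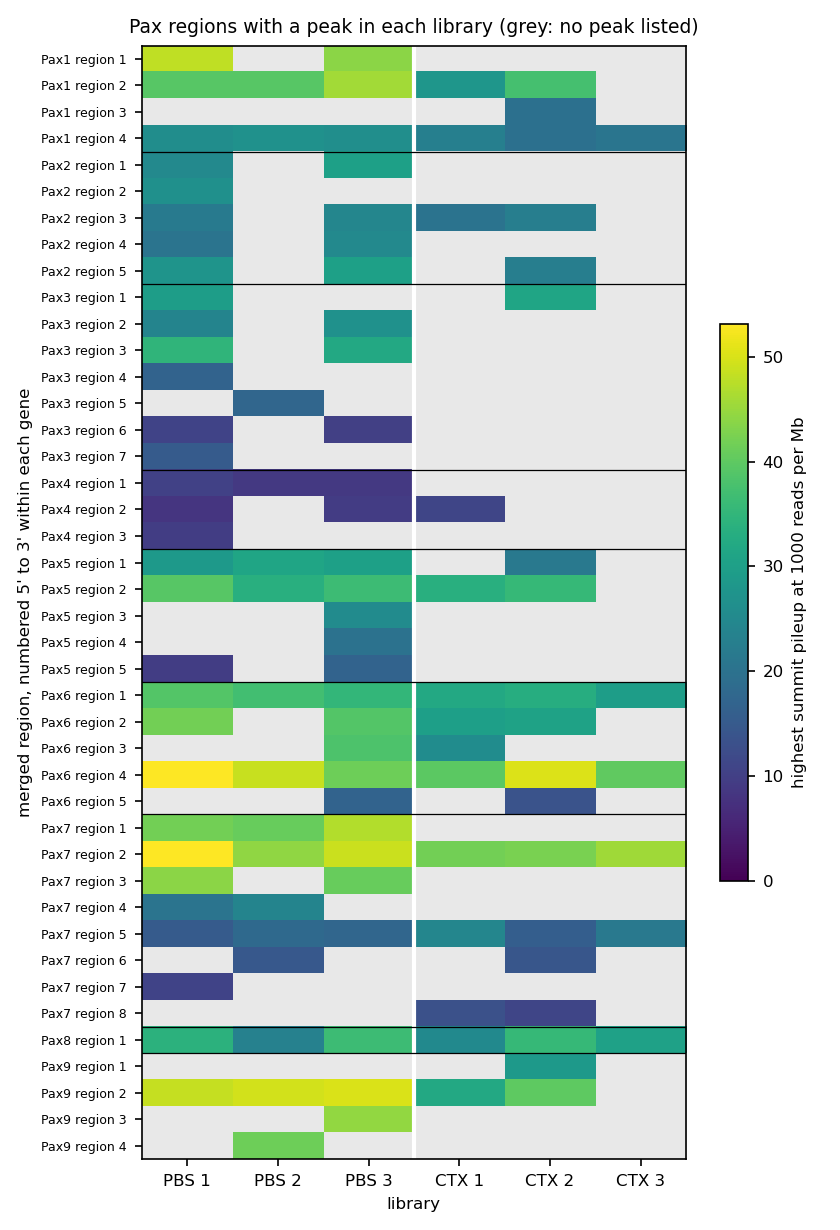
Highest summit pileup, scaled to 1000 reads per Mb, of the 42 Pax regions (rows, numbered 5′ to 3′ within each gene) in the 6 libraries (columns), with grey where no peak was listed. The 6 rows without grey are Pax1 region 4, Pax6 regions 1 and 4, Pax7 regions 2 and 5 and Pax8 region 1, and CTX 3 has colour only in those rows.

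By position, 7 of the 42 regions were upstream of a gene start, 15 overlapped an annotated exon and 20 were intronic. Within 1000 bp of an annotated start lay 15 regions, and 13 were over 5000 bp from any. The CpG observed to expected ratio of the regions had a median of 0.326, against 0.241 for all regions. Among regions of all 6 libraries it was 0.428 for the 6 at Pax genes, with a range from 0.0728 to 0.513, and 0.496 for all 1117. The Pax5 region from 711 to 1377 bp, marked in 5 libraries, held no CpG in 667 bp (ratio 0). The run CACACACACACACACACACA, on either strand, was found within 200 bases centred on the strongest summit in 8 of the 42 Pax regions (19%) and in 10% of all regions. It was found in 2 of the 6 shared by all libraries, at Pax6 and Pax7, and in 7.52% of all such regions.

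Promoter sequences from RefSeq (GRCm38.p6) were matched for 7 of the 9 genes, with 10 starts, and Pax3 and Pax4 had no entry. The 250 bases before the start are printed for 3 of them, because Pax6 and Pax8 carried a peak near a start in all 6 libraries and differ in CpG content. CpG sites are in capitals, 5′ to 3′. The first Pax6 promoter is chr2:105668646-105668895 and the second chr2:105682213-105682462, both on the plus strand, and the Pax8 promoter is chr2:24475600-24475849 on the minus strand.
Pax6 promoter 1: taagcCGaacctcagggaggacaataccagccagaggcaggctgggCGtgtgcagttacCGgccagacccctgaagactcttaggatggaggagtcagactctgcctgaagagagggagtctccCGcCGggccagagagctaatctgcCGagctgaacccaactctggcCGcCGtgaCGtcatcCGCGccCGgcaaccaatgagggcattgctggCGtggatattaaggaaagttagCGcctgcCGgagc
Pax6 promoter 2: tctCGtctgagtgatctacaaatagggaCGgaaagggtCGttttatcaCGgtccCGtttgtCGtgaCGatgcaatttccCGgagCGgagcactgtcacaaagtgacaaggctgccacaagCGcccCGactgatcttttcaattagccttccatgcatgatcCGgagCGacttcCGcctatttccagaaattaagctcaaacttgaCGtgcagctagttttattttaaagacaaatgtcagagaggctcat
Pax8 promoter 1: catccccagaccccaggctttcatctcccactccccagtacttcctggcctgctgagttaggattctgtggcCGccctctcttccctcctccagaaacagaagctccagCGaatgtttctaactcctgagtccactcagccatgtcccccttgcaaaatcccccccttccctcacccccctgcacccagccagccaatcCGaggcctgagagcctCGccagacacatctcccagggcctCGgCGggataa
They hold 15, 15 and 6 CpG sites. Over the 300 bases of the table, from 250 before to 50 after the start, the CpG observed to expected ratio was 0.698 and 0.998 for the first and second Pax6 start and 0.288 for Pax8. The median was 0.588 over 20150 starts of protein-coding genes and 0.695 over the 540 starts with a peak within 2000 bp in all 6 libraries. A peak within 2000 bp was listed in all 6 libraries at the second Pax6 start and at Pax8, in 3 PBS and no CTX library at the first Pax6 start, and likewise in 3 PBS and no CTX library at the RefSeq start of Pax7 (ratio 0.581). At the first Pax6 start the CTX peaks were listed just outside the 2000 bp, with the edges given above. At the Pax7 start the downstream CTX peaks likewise began just outside, at 2114, 2114 and 2125 bp, while the PBS libraries were counted through the upstream region, 944, 913 and 902 bp away, which no CTX library listed. The other starts had ratios of 0.639 for Pax1, 0.410, 0.812 and 0.789 for Pax2, 0.882 for Pax5 and 0.679 for Pax9.

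Genes that work with or under Pax factors were counted for context. Six2, a factor of nephron progenitors, had 1153, 884 and 1621 bp in the PBS libraries and 703, 826 and 231 bp in the CTX libraries, and every CTX value was below every PBS value. Sall1, a zinc-finger factor of the developing kidney, had 372, 397 and 671 bp in the PBS libraries and 0, 200 and 0 bp in the CTX libraries, again with no overlap between the groups. Of 9 muscle, neural crest and eye genes, 5 had a peak in all 6 libraries and 4 in none, and Myod1, the myogenic determination factor, was the 1 lower in every CTX library (2049, 1821 and 1972 bp against 481, 1556 and 1454 bp).

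Among B cell and islet genes, Ebf1, a factor of early B cells, and Nkx2-2, an islet and neural tube factor, were lower in every CTX library. Nkx2-2 had 2706, 2002 and 2052 bp in the PBS libraries and 504, 1214 and 316 bp in the CTX libraries. Of 9 axial and thymic genes, 7 had a peak, and Sox9 and Tbx18 were lower in every CTX library. These were 2 of the 6 genes of that list with a peak in all 6 libraries, and Myod1 was 1 of 5 in its list, beside the 30.7% of all such genes given above. Six2, Sall1, Ebf1 and Nkx2-2 were named after their values were seen, because they were lower in every CTX library, and they do not stand for the lists they come from. No gene of the muscle, neural crest and eye list or of the axial and thymic list was higher in every CTX library. The median CTX minus PBS difference was 0 bp over the muscle, neural crest and eye list and -305 bp over the axial and thymic list, with genes without a peak counted at 0. It was -637 bp over the 9 Pax genes and -89.2 bp over the 4266 genes with a peak, most of which had less coverage (median of 125 bp per library, against 797 bp for the Pax genes). Over genes with a peak in all 6 libraries it was -551 bp for the 4 Pax genes and -435 bp for the 993, and the median log2 ratio of covered bases, with 1 bp added to each group mean, was -0.56 and -0.67. In its pattern of covered bases over the 6 libraries, Pax8 was closest to Slc18a3, Slit2 and Kcna2, at Euclidean distances of 240 bp, 336 bp and 361 bp.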

How the data were processed

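H3K27me3 was measured by CUT&Tag in 3 PBS and 3 CTX libraries of GCs, grouped by their titles. The authors aligned the reads to mm10 with BWA, removed duplicates and reads without a unique position, and ran peak calling library by library with MACS2 (2.1.0) at a q-value threshold of 0.05. The use of a control library is not given in the sources used here. The deposited lists hold, for each summit, a score, a fold enrichment (the ratio of pileup to background), the -log10 of the p-value and the -log10 of the q-value. H3K27me3 forms broad domains, and a narrow-peak caller can break a domain into several peaks.

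Overlapping intervals of a library were merged, and the covered bases, the strongest -log10 q-value and its rank were taken per gene window (any overlap of 1 bp) with the GENCODE annotation of mm10. Whole-number pileups were solved from fold enrichment and p-value, which succeeded at 99.8% to 99.9% of summits per library, and the most frequent background gave the depth with reads extended to 200 bp. The solution was checked on simulated summits. Depth limits which peaks pass the caller, and no spike-in or read total was used. Soft-masked bases and CpG were read from the GRCm38.p6 sequence. Means are ± SD. Two-sided exact permutation tests were run per gene in Python 3.11.15, with Benjamini-Hochberg adjustment over 4266 genes, and no test was made over the family as a whole. Where the labels do not say how the pools of mice were made, p-values measure only the spread between libraries. Libraries of the same replicate number had Pearson r across the 4266 genes of 0.0230, -0.493 and -0.190 in their deviations. Over the other combinations r ran from -0.417 (PBS 1 with CTX 3, the deepest and the shallowest library) to 0.528 (PBS 2 with CTX 3, the shallowest of each group). Depth differed between libraries and its part in r was not tested, so r cannot decide whether same-numbered libraries were paired. The labels name no pairing, and pairs were taken only as an alternative. All 9 members are named, as are genes from lists of Pax partners and targets (some items of these lists are not reported here), overlapping genes, and the 3 genes nearest to the member with most coverage. The members and lists were chosen with earlier results of these data known. Alternatives were stricter q-values, equal peak numbers, other windows, joined peaks, scaling to equal covered bases, each library left out and same-numbered pairs.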

Additional observations from a re-analysis of the deposited data

How the results depend on the processing

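The summed Pax coverage, -5949 bp CTX minus PBS, stayed negative under every alternative run, and the difference in Pax genes with a peak, -2, did as well. The coverage difference was -2199 bp with equal peak numbers, -1763 bp in the promoter alone and -2271 bp after scaling to equal total covered bases. Leaving out each library in turn gave -8267 to -4531 bp, and -2.67 to -0.667 genes. The count of members lower in every CTX library, 2, was 1 (Pax1) at the q-value limit of 1e-05 and with equal peak numbers, and 0 with peaks within 1000 bp joined. The count ranged from 2 to 6 when a library was left out, with 6 without PBS 2 and 6 without CTX 2. Between libraries of like depth, an alternative chosen after the data were seen, 4 members were lower in CTX in both pairs. That is a count within pairs, and it does not ask that every CTX value lie below every PBS value. At Pax3, CTX 2 (296 bp) exceeded PBS 2 (200 bp), and at Pax5 both had 847 bp. Pax1 was among those lower under each of these alternatives except joined peaks and the promoter alone. The promoter alone means 2 kb on either side of the annotated gene start, and the RefSeq starts of Pax1 and Pax9 lie outside it. With the same-numbered libraries taken as a replicate block, the coverage difference was -9483, 1966 and -10330 bp in the 3 pairs (mean -5949 bp), and 3 members were lower in every pair (Pax1, Pax4 and Pax8). By arithmetic, the mean over the pairs equals the difference of the group means, so the block could change no other call.

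Over all alternatives, 140 of 153 single-gene differences in coverage kept their direction, 127 of them within 1 SD of the value reported and 13 beyond it. Among the 13 were Pax1 in the promoter alone (-172 bp) and Pax3 (-39.3 bp) and Pax8 (-32 bp) at the q-value limit of 1e-05. A further 10 changed sign and 3 dropped to 0 bp, for lack of any peak in either group. These counts include the replicate block, whose single-gene values equal those reported by arithmetic and could not move. They also include the values with each summit required to lie in the window, which were the same for every gene. Besides the scaled values of Pax6 (213 bp), Pax7 (49.2 bp) and Pax8 (334 bp), the sign turned for Pax5 at the q-value limit of 1e-05 (25 bp), for Pax2 (27 bp) and Pax4 (75.7 bp) with equal peak numbers, and for Pax9, which ranged from -369 to 85.7 bp when a library was left out, with 10 kb upstream (14 bp), in the promoter alone (118 bp), without CTX 3 (85.7 bp) and between libraries of like depth (62 bp). The median difference in percentile over the 4 Pax genes with a peak in all 6 libraries ranged from -0.24 to 13.3 when a library was left out, a choice made after the data were seen, and was negative without PBS 2 alone. The cause was not tested. With 3 libraries a group, no test here could reach a p-value below 0.1, and a peak that was not listed may lie under the threshold of a shallow library.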
